A study of Mus musculus with 2 samples.

Results

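The nuclear genes for the respiratory chain and ATP synthase of mitochondria were described in the adrenal gland of the mouse. They were taken as the protein-coding genes whose symbols begin with Nduf, Uqcr, Atp5 or Cox4 to Cox8, with Sdha, Sdhb, Sdhc, Sdhd, Cyc1 and Cycs added and Cox7a1 and Cox8b left out. The rule gave 94 gene identifiers under 93 symbols, as Atp5o stands under 2 overlapping identifiers, out of 55536 genes measured. Of these genes 22014 were nuclear and protein-coding other than Lars2, which was set apart because nearly all of its counts came from replicate 1. By complex there were 36 subunits of complex I, 8 assembly factors of complex I, 4 genes of complex II, 10 of complex III with cytochrome c, 18 of complex IV and 18 of complex V.

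Total RNA was sequenced from adrenal tissue of female B6CASTF1/J mice, an F1 hybrid strain with a CAST parent, aged 25 days, and the labels name no treatment. The design held 1 group with 2 libraries, called replicate 2 and replicate 1, each made from 300 ng of RNA with ERCC spike-ins (synthetic RNAs added to the sample). The labels disagree on whether the libraries came from separate animals, so every SD and p-value here measures only the spread or the difference between these libraries, which may be technical. With 1 group, the comparisons available were between genes, between the libraries, and between 2 quantifications of the same reads that the authors deposited. In bulk RNA of a whole gland, fewer cells of a type and less RNA per cell cannot be told apart.

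The respiratory chain passes electrons from NADH and succinate through complexes I, II, III and IV to oxygen, with coenzyme Q and cytochrome c as carriers, and complex V uses the resulting proton gradient to make ATP. Complexes I, III, IV and V combine a few subunits encoded in mitochondrial DNA with many encoded in the nucleus, while complex II is wholly nuclear. In the adrenal cortex the same inner membrane also holds the side chain cleavage and 11-beta hydroxylase enzymes of steroid synthesis, which draw electrons from NADPH.

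Expected counts, the estimated reads per gene, summed to 33728646 in replicate 2 and 19366343 in replicate 1. Nuclear protein-coding genes received 66.1% of them in replicate 2 and 36.3% in replicate 1, and their deposited TPM (transcripts per 1e6 transcripts, a level per length) summed to 338304 in replicate 2 and 206815 in replicate 1. Deposited TPM of coding genes were thus on a different scale in each library, and ratios between the libraries were taken only from scaled counts. Ranges and SDs of deposited TPM over the libraries include this difference of scale. The tissue label was borne out by its markers: 7 of 7 genes of the adrenal cortex and 5 of 5 genes of chromaffin cells reached 1 TPM in each library. Their summed levels were 17011 TPM in replicate 2 and 9254 TPM in replicate 1 for the cortex, and 1756 TPM in replicate 2 and 1013 TPM in replicate 1 for chromaffin cells.

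Most members were expressed at high levels. At 1 TPM or more in both libraries 89 of 94 were detected, against 51.5% of nuclear protein-coding genes. Of the 89, 72 lay among the 1000 nuclear protein-coding genes with the highest mean TPM, against 8.82% of all such genes detected. Over all members the median level came to 109 TPM in replicate 2 and 71.5 TPM in replicate 1, while detected coding genes had medians of 12.7 TPM in replicate 2 and 7.40 TPM in replicate 1. The members took 283380 counts in replicate 2 and 95496 counts in replicate 1. Their TPM made up 3.59% of coding TPM in replicate 2 and 3.84% in replicate 1. The order of the members was much the same in both libraries, with Spearman's rho of 0.97 across the 89 detected genes, which share the library preparation and are not independent replicates. Shorter members tended to have higher TPM, with rho of -0.32 in replicate 2 and -0.31 in replicate 1 between TPM and transcript length.

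**Figure D1:**
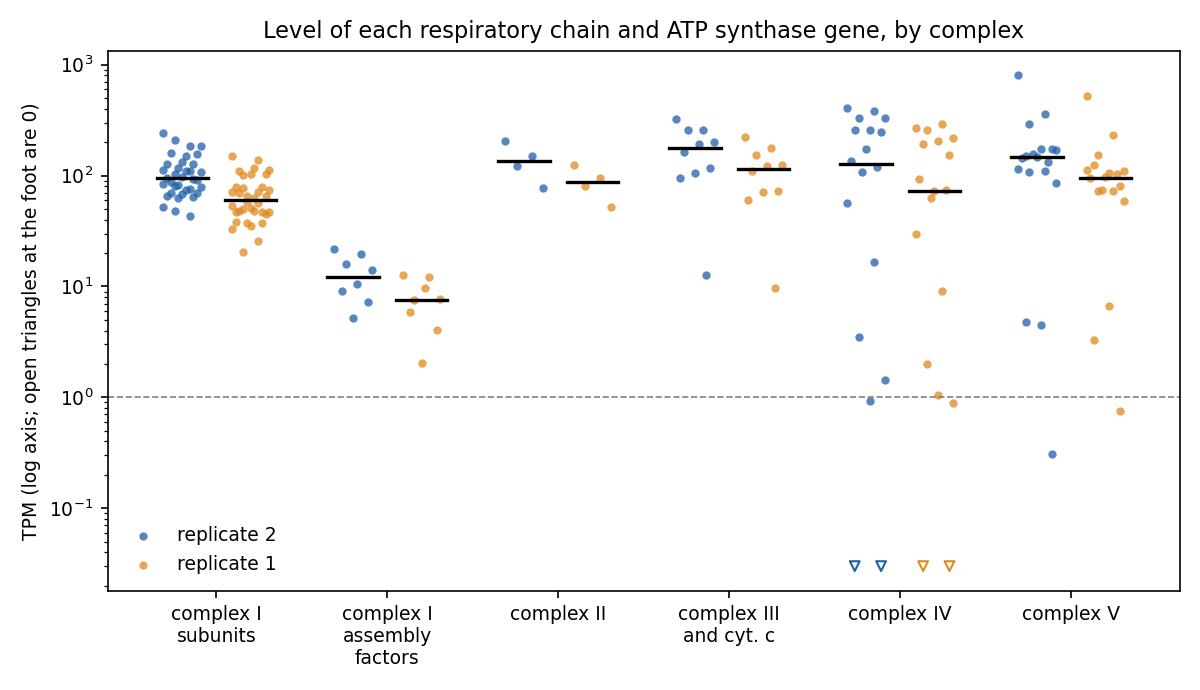
Deposited TPM of each of the 94 genes on a log axis, by complex, with replicate 2 on the left and replicate 1 on the right of each pair; black bars are medians, the dashed line is 1 TPM, and open triangles at the foot are genes with 0 counts. Complex I subunits form a compact band with medians of 94.5 TPM in replicate 2 and 60.2 TPM in replicate 1. The assembly factors lie below it, and complex IV has a tail of low paralogs. The low genes of complex V are Atp5s, the second identifier of Atp5o, and Atp5g2, which was higher in the second quantification.

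All 36 nuclear subunits of complex I, the NADH dehydrogenase, were detected, and they spanned a narrow range. Their levels ran from 43.3 to 241 TPM with a median of 94.5 TPM in replicate 2, and from 20.3 to 151 TPM with a median of 60.2 TPM in replicate 1. The highest was Ndufc1, a small accessory subunit (chr3:51404677-51408988, mm10), with 241 TPM in replicate 2 and 151 TPM in replicate 1. Ndufa3, an accessory membrane subunit, had 211 TPM in replicate 2 and 102 TPM in replicate 1. The lower value of each exceeded the complex's median in both libraries. The lowest by mean were accessory subunits as well: Ndufb4 had 47.8 TPM in replicate 2 and 20.3 TPM in replicate 1, but 284 TPM in replicate 2 and 111 TPM in replicate 1 by the second quantification. Ndufb3 had 43.3 TPM in replicate 2 and 25.8 TPM in replicate 1. Ndufa13, also known as GRIM-19, had 52.2 TPM in replicate 2 and 33.3 TPM in replicate 1. All 3 were below the complex's median in both libraries of the first quantification.

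Core subunits that carry flavin and iron-sulfur clusters lay between these levels. Ndufv1, which binds NADH and the flavin, had 97.8 TPM in replicate 2 and 51.3 TPM in replicate 1. Its partner Ndufv2 had 91.7 TPM in replicate 2 and 65.3 TPM in replicate 1. Both belong to the tip of the matrix arm, where NADH is oxidised. Ndufs1, the largest of the iron-sulfur subunits, had 83.1 TPM in replicate 2 and 53.0 TPM in replicate 1. Ndufs7, at the end of the cluster chain, had 79.9 TPM in replicate 2 and 49.98 TPM in replicate 1. All 4 stood within 1.5-fold of the complex's median in both libraries.

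The 8 complex I assembly factors, which help to build the complex but are not part of it, lay well below the subunits. They had a median of 12.2 TPM in replicate 2, with 7.62 TPM in replicate 1, and the subunit median was 7.75-fold higher in replicate 2 and 7.90-fold higher in replicate 1. The ranges did not overlap in either library: in replicate 2 the lowest subunit, Ndufb3 at 43.3 TPM, exceeded the highest factor, Ndufaf3 at 21.7 TPM. In replicate 1 the lowest subunit was Ndufb4 at 20.3 TPM and the highest factor again Ndufaf3, at 12.6 TPM. Ndufaf8, a partner of Ndufaf5, had 19.8 TPM in replicate 2 and 12.1 TPM in replicate 1. The chaperone Ndufaf1 had 15.9 TPM in replicate 2 and 7.49 TPM in replicate 1. Neither reached the lowest subunit of its library. At the low end, Ndufaf6 had 5.15 TPM in replicate 2 and 2.03 TPM in replicate 1. Ndufaf5, which hydroxylates the subunit Ndufs7, had 7.26 TPM in replicate 2 and 4.02 TPM in replicate 1. Ndufaf4 had 9.11 TPM in replicate 2 and 5.85 TPM in replicate 1.

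Complex II, succinate dehydrogenase, joins the citrate cycle to the chain, and in humans inherited defects of its genes are known for tumours of the adrenal medulla and paraganglia. All 4 genes were detected, in the order Sdha, Sdhb, Sdhc, Sdhd in both libraries. Sdha, the flavoprotein (chr13:74322254-74350280), had 205 TPM in replicate 2 and 124 TPM in replicate 1. Sdhb, the iron-sulfur subunit (chr4:140961203-140979193), had 151 TPM in replicate 2 and 95.04 TPM in replicate 1. The membrane anchors were lower, Sdhc with 123 TPM in replicate 2 and 81.1 TPM in replicate 1, then Sdhd with 77.0 TPM in replicate 2 and 51.8 TPM in replicate 1. On deposited TPM the ranges over the libraries overlapped between Sdha and Sdhb and between Sdhb and Sdhc, but not between Sdhc and Sdhd, with SDs of 56.8, 39.5, 29.3 and 17.8 TPM in that order (n = 2). On TPM rescaled to nuclear coding genes the means were 603 ± 2.58 for Sdha, 453 ± 9.63 for Sdhb, 377 ± 21.1 for Sdhc and 239 ± 16.3 for Sdhd (SD, n = 2). On that scale no neighbours in the order overlapped.

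Complex III, which passes electrons from coenzyme Q to cytochrome c, had the highest median of any complex in the first quantification. This order counts all 18 genes of complex IV, with the low paralogs Cox4i2, Cox6a2, Cox6b2, Cox7b2, Cox8c and Ndufa4l2. These paralogs lay below the complex IV median in both libraries, so counting them lowered it. The order of the complexes without them was not tested. In the second quantification complex III stood below complex IV in replicate 2 and above it in replicate 1. With cytochrome c included, its genes had a median of 178 TPM in replicate 2, and of 115 TPM in replicate 1. The small subunits led: Uqcrq had 326 TPM in replicate 2 and 223 TPM in replicate 1, while Uqcr10 had 260.3 TPM in replicate 2 and 178 TPM in replicate 1. Uqcr11 had 257 TPM in replicate 2 and 153 TPM in replicate 1. All 3 are small proteins without a redox centre. Uqcrc1, a core subunit, had 194 TPM in replicate 2 and 121 TPM in replicate 1. The catalytic subunits and the other core subunit were lower. Cyc1, the cytochrome c1 subunit, had 117 TPM in replicate 2 and 72.7 TPM in replicate 1. Uqcrc2, the other core subunit, had 105 TPM in replicate 2 and 71.6 TPM in replicate 1. Uqcrfs1, the Rieske iron-sulfur protein, had 94.4 TPM in replicate 2 and 59.7 TPM in replicate 1. These 3 stood in that order in both libraries. Their ranges over the libraries overlapped on deposited TPM, which is on a different scale in each library. Cycs, the somatic cytochrome c (chr6:50562563-50566538), was listed far below all of these, with 12.7 TPM in replicate 2 and 9.67 TPM in replicate 1. The second quantification placed it higher, as given with the sequence copies.

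Complex IV, cytochrome c oxidase, includes several subunits that come as paralogs for particular tissues. It had a median of 127 TPM in replicate 2, with 73.3 TPM in replicate 1, and 14 of 18 genes were detected in both libraries. Cox4i1, highest in replicate 2, had 409 TPM in replicate 2 and 270.1 TPM in replicate 1 (chr8:120668222-120674207). Cox6a1, highest in replicate 1, had 380 TPM in replicate 2 and 294 TPM in replicate 1. Cox6b1 had 330.2 TPM in replicate 2 and 256 TPM in replicate 1. In each library these 3 led the complex. Among subunits without a paralog here, Cox5b had 260 TPM in replicate 2 and 207 TPM in replicate 1. Cox5a had 135 TPM in replicate 2 and 93.9 TPM in replicate 1.

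In 5 of the oxidase families the widely expressed paralog held nearly all of the family's TPM. Cox4i1 held 99.7% ± 0.015 (SD, n = 2) of its family, and Cox4i2, the paralog known from lung, had 1.42 TPM in replicate 2 and 0.88 TPM in replicate 1. Cox6a1, the paralog known from liver, held 99.7% ± 0.079, and the heart and muscle paralog Cox6a2 had 0.93 TPM in replicate 2 and 1.05 TPM in replicate 1. Cox6b1 held 99.1% ± 0.20, and the testis paralog Cox6b2 had 3.49 TPM in replicate 2 and 1.98 TPM in replicate 1. Cox7b held all counts of its family, 2433 in replicate 2 and 817 in replicate 1. The testis paralog Cox7b2 had 0 counts in both, which allows a share of up to 0.123% of family counts in replicate 2 and 0.367% in replicate 1 (a limit of 3 counts, counting error only). Ndufa4, once placed in complex I and now assigned to complex IV, held 95.6% ± 0.54 of the pair it forms with the hypoxia-induced Ndufa4l2. Ndufa4 had 329 TPM in replicate 2 and 217 TPM in replicate 1. Ndufa4l2 had 16.5 TPM in replicate 2 and 9.07 TPM in replicate 1.

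The Cox7a and Cox8 families were divided. In the Cox8 family Cox8a, the widely expressed form, had 257 TPM in replicate 2 and 195 TPM in replicate 1. It held 55.6% ± 0.75 of family TPM. Cox8b, the heart and muscle form, had 201 TPM in replicate 2 and 159 TPM in replicate 1, while the testis form Cox8c had 0 counts in both. In the Cox7a family Cox7a2 held 41.0% ± 0.98, with 108 TPM in replicate 2 and 63.4 TPM in replicate 1. The heart and muscle form Cox7a1 had 94.9 TPM in replicate 2 and 64.3 TPM in replicate 1. On deposited TPM of the first quantification the ranges of both genes over the libraries thus overlapped. The second quantification gave Cox7a2 338 TPM in replicate 2 and 137 TPM in replicate 1. It gave Cox7a1 less, 157 TPM in replicate 2 and 93.0 TPM in replicate 1. Cox7a2l, which joins complexes into supercomplexes, had 56.0 TPM in replicate 2 and 29.7 TPM in replicate 1. Shares by TPM, which are per length, and by count differed: by counts Cox8a held 68.4% of its family on average. By counts Cox7a2 held 41.7% of its family in replicate 2 and 41.0% in replicate 1. Cox7a1 held 19.9% in replicate 2 and 23.3% in replicate 1.

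Cox7a1 and Cox8b are also abundant in brown fat, and markers of brown fat were present. Of a list of 8 that includes both genes, 7 reached 1 TPM in both libraries, and the list summed to 699 TPM in replicate 2 and 587 TPM in replicate 1. Ucp1, the uncoupling protein that defines brown fat, had 165 TPM in replicate 2 and 185 TPM in replicate 1. Of 9 markers of striated muscle none reached 1 TPM in both libraries, with a sum of 0.64 TPM in replicate 2 and 1.42 TPM in replicate 1. Actc1 and Myh6 were at 0 in both. The part of brown fat in the levels of Cox7a1 and Cox8b was not tested.

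**Figure D2:**
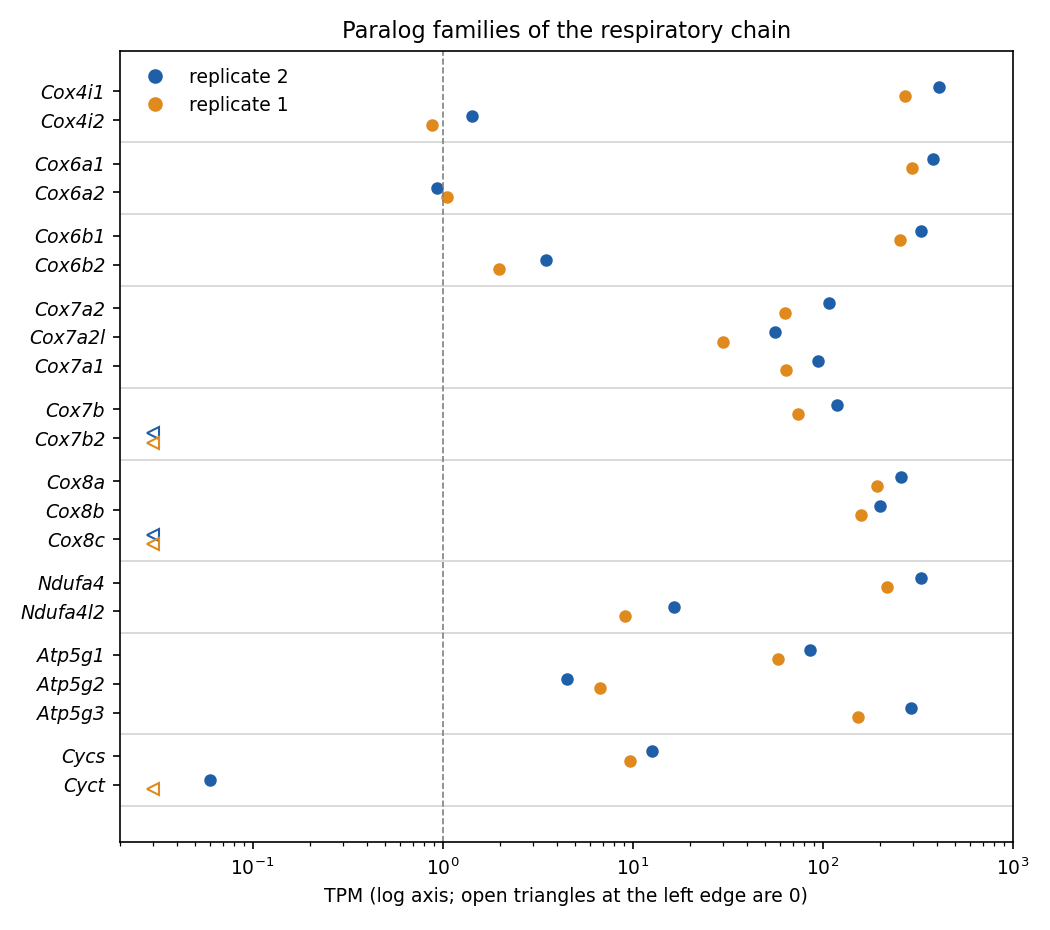
Deposited TPM on a log axis of the genes of 9 paralog families, with replicate 2 above replicate 1 in each row; the dashed line is 1 TPM and open triangles at the left are 0. Cox4i, Cox6a and Cox6b each have 1 gene above 250 TPM and 1 below 4 TPM in both libraries, whereas Cox8a and Cox8b lie close together.

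Complex V, ATP synthase, held the most abundant member. Atp5b, the catalytic beta subunit (chr10:128083273-128090391), had 803 TPM in replicate 2 and 524 TPM in replicate 1. It ranked 17 among nuclear coding genes in each library. Atp5a1, the alpha subunit (chr18:77773729-77782869), had 357 TPM in replicate 2 and 231 TPM in replicate 1. Both subunits enter each enzyme in several copies, unlike the central stalk subunits. Of the stalk, Atp5c1 (gamma) had 149 TPM in replicate 2 and 97.8 TPM in replicate 1, whereas Atp5d (delta) had 151 TPM in replicate 2 and 124 TPM in replicate 1. Atp5e (epsilon) had 155 TPM in replicate 2 and 74.7 TPM in replicate 1. The 3 stalk genes thus lay near the complex's median, 146 TPM in replicate 2 with 96.0 TPM in replicate 1. In the peripheral stalk, which holds the head still, Atp5h (subunit d) had 171 TPM in replicate 2 and 109.5 TPM in replicate 1. Atp5o, which caps the stalk, had 132 TPM in replicate 2 and 102 TPM in replicate 1. Both values of each lay below the matching value of Atp5a1. Atp5f1 (subunit b) was lower, with 108 TPM in replicate 2 and 72.2 TPM in replicate 1. Genes of the enzyme whose symbols fall outside the rule had like levels: Atpif1, its inhibitor, had 144 TPM in replicate 2 and 89.6 TPM in replicate 1, while the small subunit gene Usmg5 had 178 TPM in replicate 2 and 109 TPM in replicate 1.

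The membrane ring of ATP synthase is built from subunit c, which has the same mature protein from 3 genes. Atp5g3 held 73.3% ± 4.41 of the family's TPM (SD, n = 2), with 292 TPM in replicate 2 and 153 TPM in replicate 1. Atp5g1 held 24.6% ± 3.07, with 85.7 TPM in replicate 2 and 58.4 TPM in replicate 1. Atp5g2 was listed with 4.53 TPM in replicate 2 and 6.72 TPM in replicate 1, or 2.13% ± 1.34. The second quantification gave it 250.9 TPM in replicate 2 and 111 TPM in replicate 1. In it Atp5g3 held 52.6% of the family on average. Atp5s, coupling factor B, which is not a subunit of the enzyme, had 4.75 TPM in replicate 2 and 3.27 TPM in replicate 1. The second identifier of Atp5o, which overlaps the main gene, had 0.31 TPM in replicate 2 and 0.75 TPM in replicate 1, far below the main Atp5o.

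Many of these genes have processed copies elsewhere in the genome, and the copies took reads. Sequence shared with other genes was measured as the share of a member's 31-base words found in transcripts of other genes. By this measure 32 members had 58 copies outside the family holding 5% or more of their words, 55 of them pseudogenes and 3 protein-coding. The first quantification gave these copies 9512 counts in replicate 2 and 3554 counts in replicate 1, and the second gave them 1474 counts in replicate 2 and 720.0 counts in replicate 1. The coding sequence of the leading coding transcript, without its stop codon, was then aligned without gaps to each copy. For 5 members a copy was identical at every coding base: Atp5g2 (2 copies), Atp5l, Cox7c, Cycs and Ndufb4. These 6 identical copies held 7249 counts of the first quantification in replicate 2 and 2643 counts in replicate 1, while the other 52 together held 2262 counts in replicate 2 and 911 counts in replicate 1.

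The first 81 coding bases of these 5 members, from the GENCODE M21 transcripts, are shown because a read lying within this stretch cannot tell a member from its identical copy. Capitals mark the bases at which a further, diverged copy differs, and a name pair stands for a sequence that is the same in both. All genes but Gm10012 and Gm10053 lie on the minus strand, and the stretches of Atp5g2, Cox7c and Atp5l cross 1 intron. Gm10231 holds the same letters as Atp5g2 and is not repeated.
Atp5g2 (chr15:102665814-102667749) and Gm10175 (chr7:23947152-23947232): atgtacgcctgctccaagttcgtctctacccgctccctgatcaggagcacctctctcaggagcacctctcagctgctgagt
Ndufb4 (chr16:37654279-37654359) and Ndufb4c (chr15:73809816-73809896): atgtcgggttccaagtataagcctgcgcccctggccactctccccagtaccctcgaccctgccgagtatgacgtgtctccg
Atp5l (chr9:44914783-44920661) and Gm10221 (chr5:24581782-24581862): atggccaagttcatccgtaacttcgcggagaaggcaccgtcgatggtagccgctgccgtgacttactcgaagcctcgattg
Cox7c (chr13:86045864-86046675) and Gm12338 (chr11:75599874-75599954): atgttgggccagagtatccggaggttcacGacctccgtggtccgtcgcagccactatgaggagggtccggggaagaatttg
Gm10012 (chr17:25901862-25901942), set against Cox7c: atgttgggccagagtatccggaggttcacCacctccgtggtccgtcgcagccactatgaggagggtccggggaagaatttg
Cycs (chr6:50565580-50565660) and Gm10053 (chr19:24875753-24875833): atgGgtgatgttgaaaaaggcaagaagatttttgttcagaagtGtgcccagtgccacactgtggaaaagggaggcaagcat
Gm10108 (chr5:13121686-13121766), set against Cycs: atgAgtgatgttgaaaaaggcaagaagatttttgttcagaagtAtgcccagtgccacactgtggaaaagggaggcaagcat

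The counts of these members followed the choice of quantification. Atp5g2 received 88.3 counts in replicate 2 and 68.2 counts in replicate 1 in the first quantification, while its copy Gm10175 on chromosome 7 received 2457 counts in replicate 2 and 696 counts in replicate 1. The second quantification gave Gm10175 0 counts in both libraries, and the identical copy Gm10231 had 0 in both quantifications. Cycs received 1005 counts in replicate 2 and 419.9 counts in replicate 1, against 1603 counts in replicate 2 and 578 counts in replicate 1 for Gm10053, a copy of 1 exon annotated as protein-coding. Here the second quantification also left reads on the copy, 863 counts in replicate 2 and 399 counts in replicate 1. Ndufb4 had 759 counts in replicate 2 and 265 counts in replicate 1, fewer than the 1116 counts in replicate 2 and 346 counts in replicate 1 of Ndufb4c, to which the second quantification gave 0.

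For Cox7c the copies took a different share in each library. Gm12338 received 1300 counts in replicate 2 and 521 counts in replicate 1, and with Gm10012 the copies held 40.0% of the summed counts in replicate 2 and 56.7% in replicate 1. Cox7c itself was left with 2376 counts in replicate 2 and 505 counts in replicate 1. For Atp5l, which has 13 copies, Gm10221 received 775 counts in replicate 2 and 502 counts in replicate 1, and the copies held 23.1% of the sum in replicate 2 and 47.3% in replicate 1. Reads within shared stretches cannot be told apart, and whether any copy was transcribed was not tested.

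**Figure D3:**
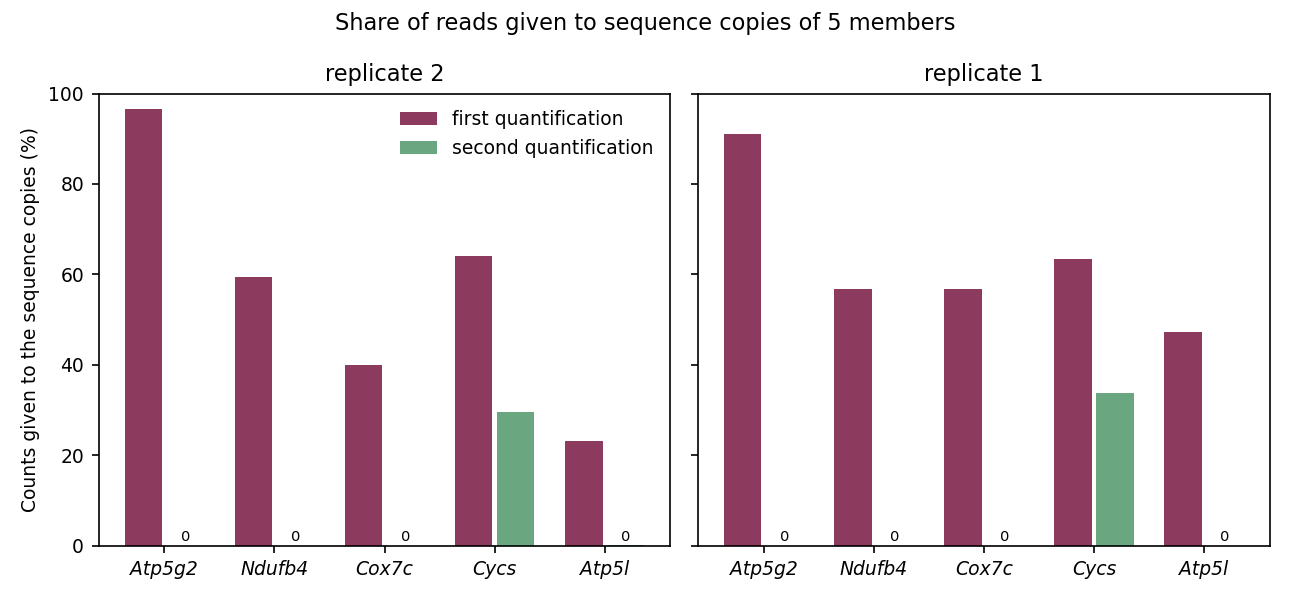
Percent of the summed counts of a member and its sequence copies that went to the copies, for 5 members, in replicate 2 (left) and replicate 1 (right); dark bars are the first and pale bars the second quantification, and a printed 0 marks shares that round to 0. The first quantification gave the copies of Atp5g2 96.5% in replicate 2 and 91.1% in replicate 1, and the second left reads mainly on the copies of Cycs.

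Across the members the quantifications were compared gene by gene at 1 TPM or more. On deposited TPM, 14 members were 2-fold or more higher in the second quantification in both libraries, against 5.21% of 12455 genes, and 0 members were 2-fold or more lower, against 0.305%. The 14 were Atp5e, Atp5g2, Atp5h, Atp5j2, Cox7a2, Cox7b, Cox7c, Cyc1, Cycs, Ndufaf3, Ndufb4, Ndufb5, Ndufb8 and Uqcrc2. This count holds a difference of scale, since over all genes the second TPM was higher by a median of 0.77 on the log2 scale in replicate 2 and 0.39 in replicate 1. After both were rescaled to nuclear protein-coding genes, 5 members were 2-fold or more higher, against 0.923% of genes, and 0 were lower, against 0.53%. These 5 were Atp5e, Atp5g2, Cox7c, Cycs and Ndufb4, and 4 of them have an identical copy. The part of the copies in these gaps was not tested. For Ndufb4 protein-coding transcripts held 24.2% of TPM in replicate 2 and 80.1% in replicate 1 in the first quantification. In the second they held 6.96% in replicate 2 and 16.4% in replicate 1. Their share fell for Cycs as well, while for Atp5g2 and Cox7c it was 93.1% or more in both quantifications. The rescaled fold, second over first, was 30.3 in replicate 2 and 11.7 in replicate 1 for Atp5g2, and 7.92 in replicate 2 and 6.07 in replicate 1 for Cycs. It was 3.25 in replicate 2 and 3.88 in replicate 1 for Ndufb4, and 2.11 in replicate 2 and 2.71 in replicate 1 for Cox7c. Atp5e had a fold of 2.06 in replicate 2 and 2.01 in replicate 1 without sharing any 31-base word with another gene. The second quantification gave Cycs 184 TPM in replicate 2 and 82.9 TPM in replicate 1, within the range of complex III. Its counts there were 2052 in replicate 2 and 786 in replicate 1. Protein-coding transcripts held 8.35% of Cycs TPM in replicate 2 and 10.8% in replicate 1 in that quantification. In the first they held 79.7% in replicate 2 and 85.2% in replicate 1.

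**Figure D4:**
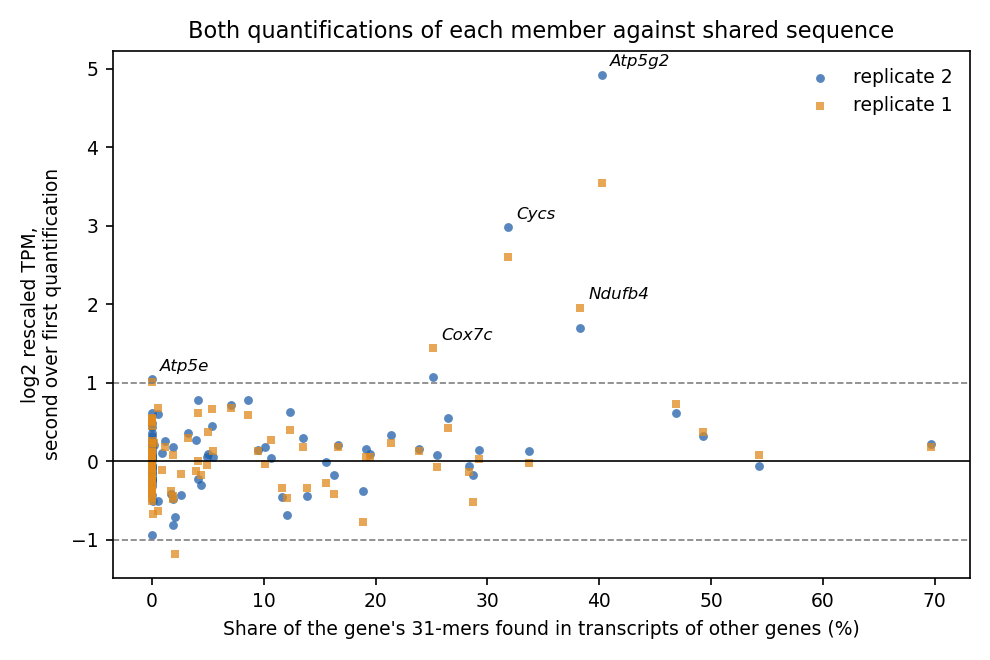
Log2 of rescaled TPM in the second over the first quantification (vertical axis) against the percent of a gene's 31-base words found in other genes (horizontal axis), for the detected members, with replicate 2 as circles and replicate 1 as squares; dashed lines mark 2-fold. Atp5g2, Cycs, Ndufb4 and Cox7c stand above the line in both libraries with over 25% shared words, while the other members with as much shared sequence lie inside the lines in both.

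The transcript tables showed which transcript of a gene held its level. In the first quantification, 79 of the 89 detected members had the same leading transcript in both libraries, and in 74 it was of the protein-coding type in both. For 10 members less than 50% of TPM of the first quantification lay on protein-coding transcripts in both libraries: Atp5f1, Atp5j, Cox5b, Ndufa3, Ndufa10, Ndufab1, Ndufaf4, Ndufaf8, Ndufc1 and Ndufs4. In Ndufa3 a transcript of 343 bases annotated for nonsense-mediated decay held 90.5% in replicate 2 and 82.2% in replicate 1. In Ndufc1 a retained-intron transcript of 311 bases held 59.2% in replicate 2 and 65.6% in replicate 1. So both of these highly listed complex I subunits drew most of their level from short transcripts not annotated as protein-coding. In Atp5j, coupling factor 6, coding transcripts held 14.6% in replicate 2 and 15.95% in replicate 1 in the first quantification, but 85.9% in replicate 2 and 38.0% in replicate 1 in the second. The second also put Atp5f1, Cox5b and Ndufaf8 above 50% in both libraries, while Ndufa3, Ndufab1, Ndufaf4, Ndufc1 and Ndufs4 stayed below. It gave coding transcripts of Cox6a1 6.10% in replicate 2 and 17.2% in replicate 1, against 99.7% and 98.9% in the first. The assignment to transcripts was thus less stable than the gene level: only 50 of the 89 members had the same leading transcript in both quantifications.

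Between the libraries most members differed by small ratios, as most genes did. Counts were scaled with trimmed mean of M-values (TMM), and the 86 members whose counts averaged 100 or more were compared as log2 of replicate 2 over replicate 1. Their median was -0.09, against 0.03 over 11544 genes, and 60 of the 86 (69.8%) lay within 0.2 of the members' median, while 59.8% of all genes lay within 0.2 of theirs. None was 1.5-fold or more higher in replicate 2, against 3.07% of all genes, and 2 were 1.5-fold or more lower, against 2.75%. An exact binomial test on counts, with Benjamini-Hochberg adjustment over all 11544 genes, called 7 members higher in replicate 2, against 17.6% of genes, and 33 lower, against 15.9%. The 7 were Atp5e, Atp5g3, Atp5l, Cox7c, Ndufa2, Ndufa3 and Ndufc2, named after their values were seen. The 33 comprised 12 complex I subunits, 2 assembly factors, 1 gene of complex II (Sdhd), and 6 genes each of complex III with cytochrome c, complex IV and complex V. The test covers counting error only and compares these libraries, not conditions. The direction depended on the scaling: with TMM 63 of 86 ratios were below 0, against 45.1% of all genes, whereas on total counts the test called 85 members higher, against 97.6% of genes, and 0 lower, against 0.814%. On spike-in counts it called 17 members higher, against 38.6% of genes, and 16 lower, against 7.8%. The median ratio of all genes was 0.91 on total counts and 0.16 on spike-in counts. Under each of the 5 scalings of the first quantification the members' median lay 0.12 below that of all genes. A scaling shifts the ratios of all genes alike, so this gap could hardly differ between scalings. In the second quantification the members' median minus that of all genes was -0.17.

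By complex the median log2 ratio was -0.09 for complex I subunits, 0.09 for the complex I assembly factors, -0.08 for complex II, -0.11 for complex III with cytochrome c, -0.11 for complex IV and -0.12 for complex V. On total counts all complex medians lay above 0. With TMM all 10 genes of complex III with cytochrome c and all 4 of complex II had ratios below 0 (Uqcr11 only just, at -0.00), against 45.1% of all genes. In the second quantification 2 of these 14 lay above 0, Uqcr11 at 0.08 and Uqcrh, called lower in the first at -0.28, at 0.03. Of the 7 assembly factors compared, 5 lay above 0 with TMM and 2 below, where 45.1% of all genes lay below.

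The members past 1.5-fold were Atp5k and Ndufaf2. Atp5k, subunit e of ATP synthase (chr5:108433244-108434448), had 990 counts in replicate 2 and 509 counts in replicate 1, a log2 ratio of -0.72 (exact binomial test, adjusted p = 1.6e-17). It was also lower in the second quantification, at -0.59. Ndufaf2, a late assembly factor of complex I, had 188 counts in replicate 2 and 90 counts in replicate 1, a ratio of -0.62 (exact binomial test, adjusted p = 0.0052), and stood at -0.22 in the second quantification. At the other end were Cox7c at 0.55 and Atp5l, subunit g, at 0.52, both among the members with identical copies. Summed with their copies, Cox7c stood at 0.08 and Atp5l at -0.02. Atp5g2, too low to be compared alone, stood at -1.30 alone and at 0.05 summed with its copies. Among members that share no 31-base word with another gene, Ndufc2, a membrane arm subunit, had 1743 counts in replicate 2 and 434 counts in replicate 1, a ratio of 0.32. Atp5d had 3981 counts in replicate 2 and 1636 counts in replicate 1, a ratio of -0.40.

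**Figure D5:**
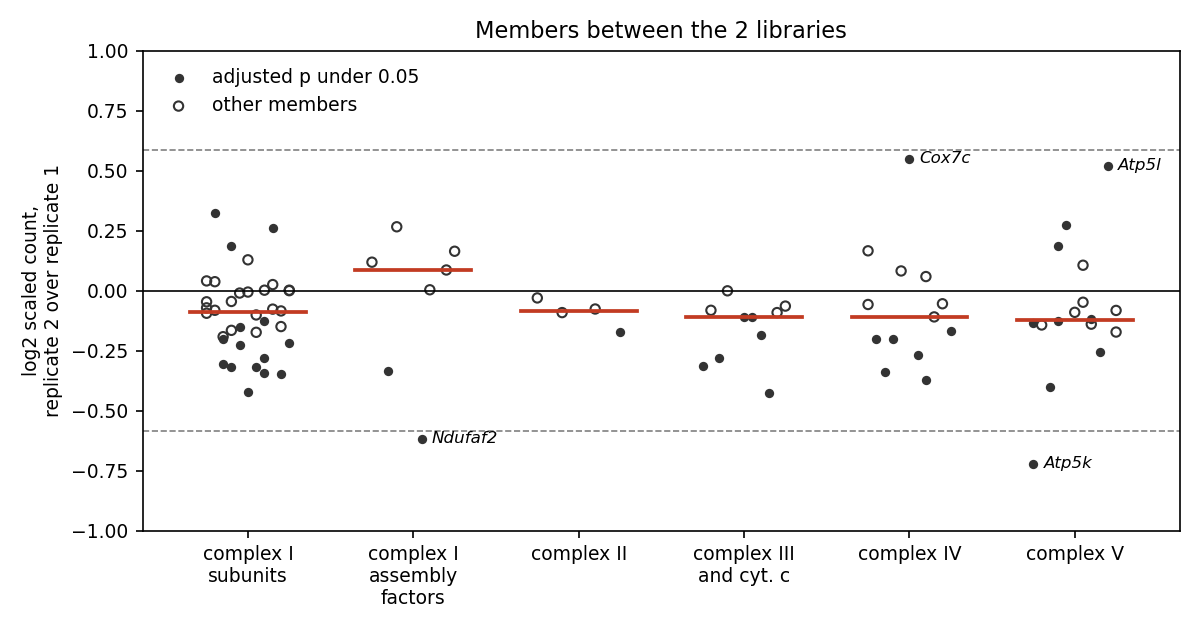
Log2 of scaled counts, replicate 2 over replicate 1 (TMM), for the 86 members compared, by complex; filled points have an adjusted p under 0.05 in the exact binomial test, bars are medians and dashed lines mark 1.5-fold. All but Atp5k and Ndufaf2 lie inside the 1.5-fold lines, and Cox7c and Atp5l are the highest.

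Markers of other tissues moved with the libraries as well. With TMM all 7 brown fat markers compared had ratios below 0, against 45.1% of all genes, with Ucp1 at -0.91 and a list median of -0.40. Of 7 liver markers, all called lower in replicate 2 (against 15.9% of all genes), 6 had log2 ratios between -9.04 and -7.54 and Cyp2e1 stood at -0.84. The deposited TPM of the 7 summed to 41.9 in replicate 2, of which Cyp2e1 held 38.2, and to 234 in replicate 1. Cox8b and Cox7a1, themselves on the brown fat list, had ratios of -0.40 and -0.17. The list median was the ratio of Cox8b itself, so it is no separate value to set beside that gene. The cortical markers had a median ratio of 0.05 and the chromaffin markers one of 0.12. On total counts, where the median of all genes was 0.91, the brown fat median lay above 0. The part of these tissues in the ratios of the members was not tested.

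Genes that serve the chain were described from fixed lists by the same measures, naming the highest and the lowest gene of a list by the mean TPM of the libraries. The 13 subunits encoded in mitochondrial DNA had a median of 4541 TPM in replicate 2 and 4298 TPM in replicate 1, far above the nuclear subunits. The highest by mean, mt-Co1, had 10504 TPM in replicate 2 and 8131 TPM in replicate 1, where mt-Atp8 stood higher at 8338 TPM. The lowest by mean, mt-Co2, had 120 TPM in replicate 2 and was listed at 0 in replicate 1. With TMM the binomial test called 11 of the 13 lower and 2 higher in replicate 2, against 15.9% and 17.6% of all genes. The 2 higher, named after their values were seen, were mt-Co2, whose count of 0 in replicate 1 allows no ratio, and mt-Atp6 at a log2 ratio of 2.49. In the second quantification mt-Co2 stood at 0.03 and mt-Atp6 at -0.44. There mt-Co2 had 985 TPM in replicate 2 and 397 TPM in replicate 1, whereas mt-Atp8 was listed at 0 in both. All 18 enzymes of the citrate cycle and pyruvate dehydrogenase were detected, and they had a median of 94.7 TPM in replicate 2 and 64.7 TPM in replicate 1, close to that of complex I subunits. Pdhx, a pyruvate dehydrogenase component, was lowest by mean with 36.0 TPM in replicate 2 and 28.2 TPM in replicate 1, where Dlat and Suclg2 stood lower at 26.4 and 27.5 TPM. Of the 18, 13 were called lower and 0 higher, against the same 15.9% and 17.6% of all genes. These calls are with TMM, and on total counts the median ratios of both lists lay above 0.

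The 41 assembly factors other than the Ndufaf genes were all detected, with a median of 17.3 TPM in replicate 2 and 9.22 TPM in replicate 1, in the range of the Ndufaf genes and below the median subunit of every complex. Cox17, the copper carrier of complex IV, was highest with 89.8 TPM in replicate 2 and 56.9 TPM in replicate 1. Sdhaf3 was lowest by mean with 2.11 TPM in replicate 2 and 1.42 TPM in replicate 1, where Pet117 stood lower at 1.15 TPM. Of 39 compared, 2 were called higher and 4 lower, where 17.6% of all genes were called higher and 15.9% lower. The 13 coenzyme Q synthesis genes had a median of 17.7 TPM in replicate 2 and 13.2 TPM in replicate 1. Coq8a was highest by mean with 118 TPM in replicate 2 and 41.1 TPM in replicate 1, where Coq9 stood higher at 43.8 TPM. Pdss1 was lowest with 2.47 TPM in replicate 2 and 1.41 TPM in replicate 1. Of 12 compared, 2 were called higher and 1 lower, against the same shares of all genes.

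Regulators of mitochondrial biogenesis were low, with a median of 8.47 TPM in replicate 2 and 5.63 TPM in replicate 1 over 15 genes. Yy1 was highest with 25.7 TPM in replicate 2 and 21.1 TPM in replicate 1. Esrrb was lowest with 0.02 TPM in replicate 2 and 0.03 TPM in replicate 1. Of 14 compared, 2 were called higher and 4 lower, against 17.6% and 15.9% of all genes. Their median log2 ratio was -0.05, with 7 below 0 and 7 above, where 45.1% of all genes lay below. The next 2 genes were named after their values were seen. The coactivator Ppargc1a had 128 counts in replicate 2 and 137 counts in replicate 1, a ratio of -1.77, and -1.76 in the second quantification. In the other direction, Esrrg had 662 counts in replicate 2 and 131 counts in replicate 1. Its ratio was 0.65, and 0.74 in the second quantification.

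Several of these regulators are DNA-binding factors, and promoters of the members were searched for short forms of their motifs. RefSeq promoter windows (GRCm38.p6, 250 bases before to 50 bases after the gene start) were matched for 75 of the 93 symbols, and 21262 windows of protein-coding genes served as background. The letters CGCATGCG, a core of the NRF1 motif, occurred on either strand in 12 of 75 member windows (16%) and in 2.52% of all windows. CCGGAAG, the motif of the GABP and ETS factors, occurred in 18 (24%) and in 11.6% of all windows. AAGGTCA, the single site of the estrogen-related receptors, occurred in 8 (10.7%) and in 4.08%. AAGATGGCG, the motif of YY1, occurred in 8 (10.7%) and in 1.83%. Of these 8 only the match in Atp5j, at -88, lay before the gene start. The others began at bases 11 to 36 after it. No motif of the 4 contains another, and 40 of the 75 windows held none of them. Member windows had a median GC content of 58.7% and all windows 56.3%. A match is a description of these letters and does not show binding.

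The NRF1 matches lay in 4 genes of complex V (Atp5g2, Atp5j, Atp5k and Atp5l), 3 of complex III with cytochrome c (Cycs, Uqcr11 and Uqcrc1), 2 complex I subunits (Ndufa8 and Ndufa11), 2 assembly factors (Ndufaf4 and Ndufaf5) and Cox6a1. Stretches of 81 bases before the start are shown for a few of the more abundant members and for Cycs, all on the minus strand, with the motif in capitals.
Cycs, NRF1 (chr6:50566586-50566666): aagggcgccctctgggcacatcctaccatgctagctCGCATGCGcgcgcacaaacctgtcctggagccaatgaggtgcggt
Cox6a1, NRF1 (chr5:115349075-115349155): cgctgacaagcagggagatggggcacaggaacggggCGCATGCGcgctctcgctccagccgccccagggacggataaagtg
Uqcr11, GABP (chr10:80406844-80406924): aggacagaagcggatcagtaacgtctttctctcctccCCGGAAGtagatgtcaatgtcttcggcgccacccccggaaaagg
Atp5g3, estrogen-related receptors (chr2:73911335-73911415): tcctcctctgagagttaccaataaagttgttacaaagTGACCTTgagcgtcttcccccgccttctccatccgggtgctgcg
Atp5j, YY1 (chr16:84835020-84835100): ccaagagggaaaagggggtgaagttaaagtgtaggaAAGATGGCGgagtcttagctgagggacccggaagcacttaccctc
In Atp5g3 the motif appears as its reverse complement, and Atp5j also holds a GABP match and an NRF1 match in its window.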

How the data were processed

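For each library the authors deposited a gene table and 2 transcript tables. Per the file headers, the first quantification (a gene table with its transcript table) gives expected counts, TPM and, per transcript, the percent of a gene's TPM (isoform percent); the other transcript table (the second quantification) gives estimated counts and TPM, here summed per gene. Per the notes deposited beside the files, reads were quantified on mm10 with GENCODE M21; program and version: not given in the sources used here. Score columns that the authors deposited, the bounds of a TPM interval of unstated level, were not printed. Reads of the CAST allele may carry mismatches to the reference, which was not tested.

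Expected counts were rounded, and TMM factors came from edgeR 4.0.16 under R 4.3.3, adding 1 count as prior. Genes averaging 100 counts or more were compared between the libraries, as a fold and by an exact binomial test, conditional on the summed count, with adjustment after Benjamini and Hochberg (threshold 0.05). Levels were compared between genes as TPM only. Rescaled TPM sums to the same total over the nuclear coding genes, Lars2 excepted. Sequence copies share at least 5% of a member's 31-base words and lie outside its locus. The binomial test and the ratio were run on simulated counts that held counting error only, at a known library share. That run checks the calculation, not the scaling or the spread between libraries. Alternatives included DESeq2 1.42.0 size factors, spike-in and total counts, other minima and the second quantification. Python 3.11.15, numpy 2.4.6, scipy 1.17.1, pandas 2.3.3 and matplotlib 3.10.9 were used.

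Named genes are the 3 highest and 3 lowest of each complex, all of complex II, the paralog families, members past 1.5-fold or 2-fold in the comparisons, and the ends of each list; 2 genes that the rule names are not reported here. The members and lists were chosen with earlier results of these data known, and the core, stalk and single-copy subunits and the genes of the transcript, copy and promoter results were named after their values were seen. Depth limits the precision of low genes, and PCR reads that carry no molecular identifier do not count independent molecules.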

Additional observations from a re-analysis of the deposited data

How the results depend on the processing

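Detection kept its count of members within 84 to 91 of 94 under thresholds of 0.5 and 5 TPM and in the second quantification, and was 90 without either replicate. Rescaled TPM raised the median level (mean of the libraries) by construction, to 333 for all members, 285 for complex I subunits, 36.4 for the assembly factors, 415 for complex II, 541 for complex III with cytochrome c, 365 for complex IV and 448 for complex V. In the second quantification these medians were 157, 129, 17.3, 161, 249, 249.8 and 212 TPM, and those of other assembly factors, citrate cycle enzymes, regulators and coenzyme Q genes were 23.1, 125, 14.1 and 21.9 TPM. The members' median log2 ratio was 0.79 on total counts and 0.0367 on spike-in counts. The count of members 1.5-fold or more higher became 72 on total counts and 2 on spike-in counts. The count lower became 0 on total counts, 1 on spike-in counts, 1 in the second quantification, 4 at a mean count of at least 10, 5 with no minimum and 0 at 2-fold. Binomial calls higher became 85 on total counts, 17 on spike-in counts and 4 in the second quantification, and calls lower became 0 on total counts and 16 on spike-in counts. In the second quantification the family shares of Cox4i1, Cox6a1, Cox6b1, Cox7a2, Cox8a and Atp5g3 were 99.73%, 99.79%, 98.6%, 51.6%, 59.4% and 52.6%, and by counts those of Cox8a and Ndufa4 were 68.4% and 91.2%. The members 2-fold or more higher in the second quantification numbered 37 at 1.5-fold and 5 on rescaled TPM, and 14 to 39 when either replicate was left out. Rescaled TPM in the comparison of the quantifications, the level without members of 20% or more shared words, and counts summed with copies were added after the data were seen. Apart from the scale of TPM itself, the causes of these moves were not tested. No paired analysis was possible because there is only 1 group. Genes under a mean count of 100, 8 members among them, were not compared between the libraries.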
